A study of Homo sapiens with 6 samples.

Results

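CEACAM19 and 6 further cell-surface genes are described here, 7 of the 30230 genes in the count table, and all 7 passed the filter on low counts with 17076 genes. They are CEACAM19 and the other carcinoembryonic antigen genes with measurable RNA in these cells (CEACAM1, CEACAM5 and CEACAM6). The rest are the nectin-like gene PVR, the nectin gene NECTIN2 and BCAM, and all 7 lie on the long arm of human chromosome 19. CEACAM19 was picked because its rise in these libraries was the largest among well-expressed genes, so its own change is given as a description with no test. The other 6 were chosen by name, family and chromosome, with earlier results of these data known. The question asked of them was whether PVR, the gene that overlaps CEACAM19, and the other surface genes moved in the same direction. BCAM and NECTIN2 lie 124712 and 161816 bases after CEACAM19, whereas CEACAM1, CEACAM5 and CEACAM6 lie more than 1000 kb from it.

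Polyadenylated RNA of A549, a human lung adenocarcinoma cell line, was sequenced in 3 control libraries (NC) and 3 libraries made after silencing of FSCN1 (siFSCN1), which encodes fascin, a protein that bundles actin filaments. The study designed 3 siRNAs against FSCN1, and its text names 1 of them for the silenced libraries and a scrambled siRNA for NC, whereas the NC treatment label names a control plasmid. All libraries came from 1 cell line and, by the study's text, were biological replicates. Loss of FSCN1 and any other action of that siRNA cannot be told apart in this design.

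The libraries held between 27967301 and 36560919 counts. FSCN1 read 45.0, 47.2 and 46.0 FPKM (fragments scaled to gene length and to library size) in NC and 4.46, 2.82 and 3.19 FPKM in siFSCN1, a log2 fold change of -3.89 ± 0.09 (SE). The summed FPKM of 8 epithelial marker genes ran from 3118 to 3499 in NC and from 1760 to 2117 in siFSCN1, with 3 of the 8 higher and 5 lower. Fibroblast markers summed to at most 0.66 FPKM and endothelial markers to at most 0.04 FPKM in any library. Leukocyte markers summed to between 2.87 and 3.07 FPKM in NC and between 3.97 and 4.86 in siFSCN1, nearly all of it CD14, while the pan-leukocyte gene PTPRC averaged 0.003 FPKM in each group. The part of these shifts in the results below was not tested, and in bulk RNA fewer cells of a type cannot be told apart from less RNA per cell.

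The carcinoembryonic antigen-related cell adhesion molecules (CEACAMs) are immunoglobulin-superfamily proteins of the cell surface. CEACAM1 spans the membrane, binds itself and other CEACAMs on neighbouring cells and can inhibit signalling through its cytoplasmic tail, whereas CEACAM5 and CEACAM6 are held by a lipid anchor and are widely used as epithelial tumour antigens. Nectins and nectin-like proteins are related adhesion molecules that join neighbouring cells and, on tumour cells, serve as ligands for receptors of lymphocytes.

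CEACAM19 (ENSG00000186567.13, GRCh38 chromosome 19, 44662278 to 44684359, plus strand), a little-studied member of the CEACAM family, read 1.06, 1.17 and 1.35 FPKM in NC and 9.04, 8.95 and 8.41 FPKM in siFSCN1. The lowest siFSCN1 library lay far above the highest NC library. The raw counts behind these levels were 203, 202 and 300 in NC and 1790, 1741 and 1671 in siFSCN1. The mean level was 1.19 FPKM ± 0.146 (SD, n = 3) in NC and 8.80 FPKM ± 0.341 (SD, n = 3) in siFSCN1. Fitted on the counts, with library sizes scaled for composition, the log2 fold change was 2.71, or 6.53-fold. Of all genes tested, 118 had a larger rise, of which 18 had a mean of at least 1 FPKM. Among the 505 genes that changed at least 2-fold with no overlap and reached 5 FPKM in the higher group, 150 were higher in siFSCN1 and 0 of them exceeded CEACAM19. Genes just below it included SMOC1 at 2.41 and TFPI at 2.34 on the log2 scale.

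PVR (ENSG00000073008.15, chromosome 19, 44643798 to 44666162, plus strand), which encodes the poliovirus receptor CD155, a nectin-like adhesion protein and ligand of lymphocyte receptors, moved the opposite way. Its level was 24.46, 26.28 and 25.19 FPKM in NC and 14.99, 14.79 and 14.11 FPKM in siFSCN1, so that every silenced library lay below every control library. It averaged 25.3 FPKM ± 0.916 in NC and 14.6 FPKM ± 0.461 in siFSCN1 (SD, n = 3). The fitted log2 fold change was -0.96 ± 0.04 (SE, 95% interval -1.04 to -0.87), which left 51.5% of the NC level (edgeR quasi-likelihood test, adjusted p = 6.0e-13). PVR therefore fell at the locus where CEACAM19 was higher. The ratio of CEACAM19 to PVR in FPKM was 0.0433, 0.0445 and 0.0536 in NC and 0.603, 0.605 and 0.596 in siFSCN1, and the sum of the pair in counts scaled to library size (CPM) was 202 ± 6.55 in NC and 151 ± 4.92 in siFSCN1 (SD, n = 3).

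**Figure D1:**
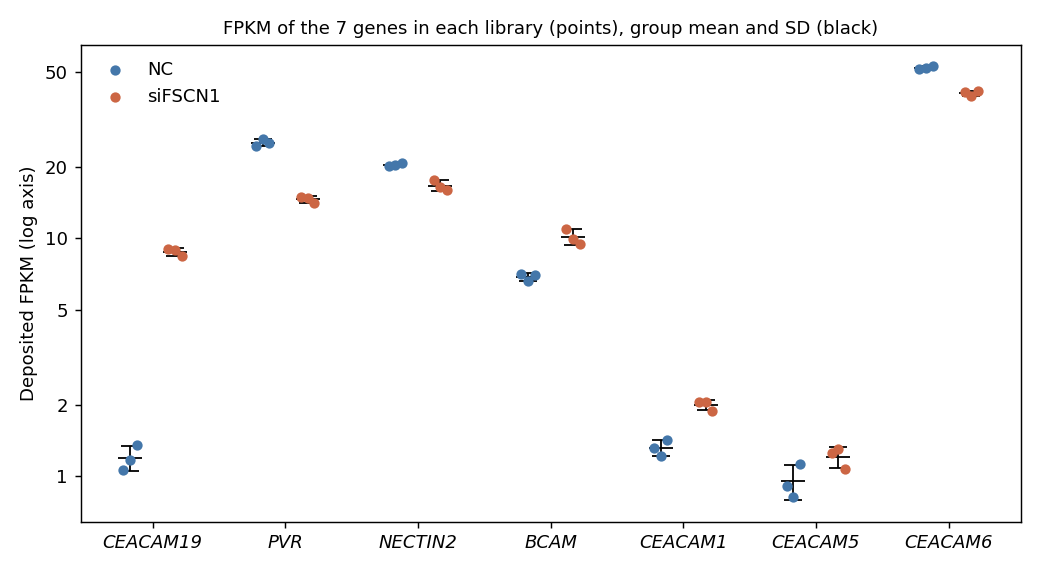
Level of each of the 7 genes in each library, as deposited FPKM on a log axis, with NC and siFSCN1 libraries as coloured points and the group mean and SD in black. CEACAM19 moved from about the level of CEACAM1 and CEACAM5 to just below that of BCAM, while the 3 most abundant genes, CEACAM6, PVR and NECTIN2, lay lower in siFSCN1.

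The spans of the 2 genes overlap by 3885 bases on the same strand in the GENCODE v44 annotation. Their exons share 1 block of 121 bases, chromosome 19 from 44662278 to 44662398, where the first exon of 5 of the 9 annotated CEACAM19 transcripts lies inside the last exon of PVR. These bases are 2.34% of the exonic length of CEACAM19. The canonical CEACAM19 transcript has 8 exons and starts at 44671482, which is 5320 bases after the end of PVR and outside any overlap.

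**Figure D2:**
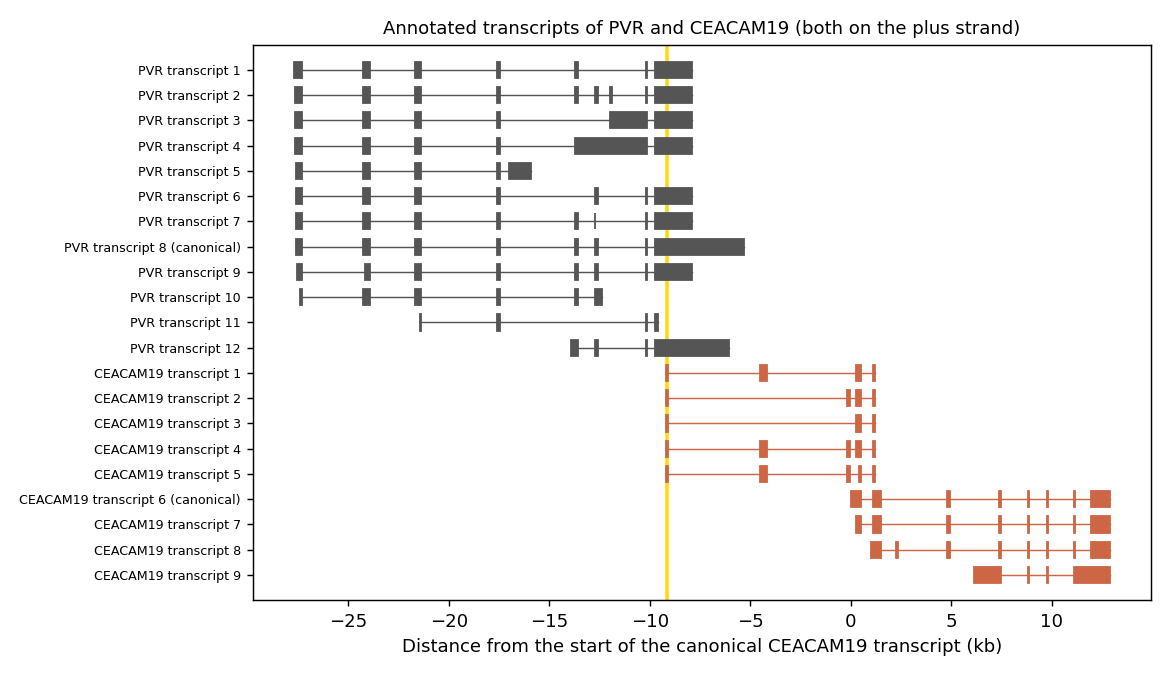
Map of the annotated exons of PVR and CEACAM19 by distance in kilobases from the start of the canonical CEACAM19 transcript, with each transcript on its own line (boxes are exons, lines introns) and the shared 121 bases marked by a yellow line. The canonical CEACAM19 transcript begins beyond the end of PVR.

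How reads on the shared block were assigned is not given in the sources used here. A rough reckoning treated each PVR count as a point and spread the counts evenly over the length implied by the deposited FPKM. The block would then hold 109, 105 and 130 PVR counts in NC and 69.0, 66.9 and 65.2 in siFSCN1. If all of these had been counted to CEACAM19, they would be 53.5%, 52.1% and 43.4% of its counts in NC but 3.85%, 3.84% and 3.90% in siFSCN1. Taking them away would leave CEACAM19 at a mean of 3.97 CPM in NC and 49.4 CPM in siFSCN1, a 12.4-fold difference in place of 6.53. By this reckoning the shared block would bear far more on the level of CEACAM19 in NC than on that in siFSCN1. Sequenced fragments span many bases, so at even coverage more PVR fragments would touch the block than reckoned here. The reckoned shares and the 12.4-fold value are therefore not estimates of what was counted.

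A further gene, CEACAM16-AS1, runs through both genes on the opposite strand and shares 0 exonic bases with them. It read 1.48, 1.02 and 1.31 FPKM in NC and 2.11, 1.68 and 2.13 FPKM in siFSCN1, with no overlap between the groups. Its log2 fold change was 0.46 ± 0.14 (SE, adjusted p = 0.00829). The library kit marked strand, but whether strand was used in counting is not given in the sources used here.

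NECTIN2 (ENSG00000130202.10, 44846175 to 44889223, plus strand), a nectin gene, encodes an adherens-junction protein that binds the same family of lymphocyte receptors as PVR. It read 20.2, 20.3 and 20.7 FPKM in NC and 17.7, 16.4 and 16.0 FPKM in siFSCN1, with the groups apart. NECTIN2 fell, with a log2 fold change of -0.46 ± 0.05 (SE, interval -0.55 to -0.36, adjusted p = 5.5e-08). On the counts its mean was 96.2 CPM ± 0.431 in NC and 70.0 CPM ± 2.95 in siFSCN1 (SD, n = 3).

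BCAM (ENSG00000187244.12, 44809071 to 44821421, plus strand), the Lutheran blood group glycoprotein and a receptor for laminin, rose modestly. Its level was 7.06, 6.62 and 7.0 FPKM in NC and 10.99, 9.96 and 9.50 FPKM in siFSCN1, and the groups did not overlap. The log2 fold change was 0.39 ± 0.06 (SE, interval 0.27 to 0.51, adjusted p = 6.1e-06), a 1.31-fold difference.

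CEACAM6 (ENSG00000086548.9, 41750977 to 41772211, plus strand), a lipid-anchored CEACAM, was the most abundant of the 7 genes per length. It read 51.8, 52.3 and 53.0 FPKM in NC and 41.3, 39.6 and 41.6 FPKM in siFSCN1, with the libraries of each group close together and apart from the other group. CEACAM6 fell to 69.5% of the NC level, a log2 fold change of -0.53 ± 0.04 (SE, interval -0.60 to -0.45, adjusted p = 5.1e-10).

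CEACAM1 (ENSG00000079385.23, 42507304 to 42561234, minus strand), the transmembrane CEACAM with an inhibitory tail, rose from 1.31, 1.22 and 1.42 FPKM in NC to 2.05, 2.06 and 1.88 FPKM in siFSCN1, with no overlap. Its log2 fold change was 0.43 ± 0.10 (SE, interval 0.22 to 0.64, adjusted p = 0.00108), or 1.35-fold. CEACAM5 (ENSG00000105388.16, 41708585 to 41730433, plus strand), which encodes the antigen CEA, read 0.910, 0.820 and 1.13 FPKM in NC and 1.25, 1.30 and 1.07 FPKM in siFSCN1. The groups of CEACAM5 overlapped and its log2 fold change of 0.17 ± 0.14 (SE, interval -0.12 to 0.45) did not pass the test (adjusted p = 0.285).

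Of the 6 genes besides CEACAM19, 2 rose, 3 fell and 1 did not pass at an adjusted p under 0.05. Across all genes tested, 35.1% passed as higher and 33.2% as lower, so neither count is read as a result about these 6 genes as a set. None of the 6 reached a 2-fold change, which 11.7% of all genes passed as higher and 4.85% as lower. The CPM of NC and siFSCN1 did not overlap for 5 of the 6 genes, all but CEACAM5, against 71.3% of all genes tested. Genes of like abundance also moved: the median log2 fold change of the 1463 tested genes between 10 and 20 FPKM, the class of PVR and NECTIN2, was -0.22 with quartiles of -0.51 and 0.07. For the 1037 genes between 20 and 50 FPKM, the class of CEACAM6, the median was -0.28, for those of BCAM's class -0.13 and for the class of CEACAM1 and CEACAM5 0.12. The value of PVR lay below the lower quartile of its class, that of BCAM lay above the upper quartile of its class (0.20), and those of NECTIN2, CEACAM6, CEACAM1 and CEACAM5 lay within the quartiles of theirs.

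**Figure D3:**
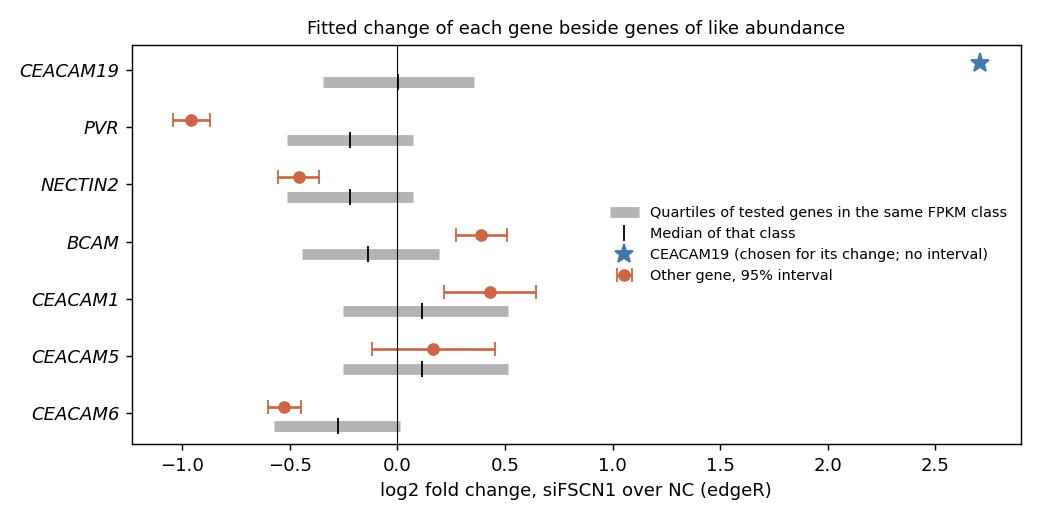
Log2 fold change of siFSCN1 over NC for each of the 7 genes on the horizontal axis, with 95% intervals for the 6 tested genes, a star without an interval for CEACAM19, and the median and quartiles of tested genes of like abundance beside each. PVR lay at -0.96 and CEACAM19 at 2.71, on opposite sides of 0.

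The order of the levels changed with silencing. In NC, by mean FPKM, it ran CEACAM6, PVR, NECTIN2, BCAM, CEACAM1, CEACAM19 and CEACAM5, where the ranges of CEACAM1 and CEACAM19, and of CEACAM19 and CEACAM5, overlapped. In siFSCN1 the order was CEACAM6, NECTIN2, PVR, BCAM, CEACAM19, CEACAM1 and CEACAM5, and no neighbours in it overlapped. The place of PVR rests on the length behind its deposited FPKM, which was 0.585 of its exonic length in GENCODE v44. At the full exonic length it would average 14.8 FPKM in NC and 8.56 FPKM in siFSCN1, below NECTIN2 in both groups and, in siFSCN1, below BCAM and within the range of CEACAM19 as well. CEACAM6 made up 93.1% to 94.2% of the summed FPKM of the CEACAM family in NC and 76.2% to 78.4% in siFSCN1, while the share of CEACAM19 was 1.92% to 2.37% and 15.9% to 17.2%. The sum itself ran from 55.2 to 57.0 FPKM in NC and from 52.1 to 53.7 FPKM in siFSCN1.

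The promoters of the CEACAM genes are shown because CEACAM6 fell, CEACAM1 rose and CEACAM5, a close relative of both, did not pass the test. That of PVR is shown because PVR fell beside CEACAM19. Windows from 250 bases before to 50 after the annotated start, on GRCh38.p14, were taken from RefSeq, in which 6 of the 7 genes matched, all but CEACAM19. Capitals mark CACGTG, the E-box bound by basic helix-loop-helix factors, in the CEACAM promoters, and the NRF1 motif (GCGCA, any base, GCGC) in that of PVR, each searched on both strands.
CEACAM5, chr19:41708376-41708675, plus strand: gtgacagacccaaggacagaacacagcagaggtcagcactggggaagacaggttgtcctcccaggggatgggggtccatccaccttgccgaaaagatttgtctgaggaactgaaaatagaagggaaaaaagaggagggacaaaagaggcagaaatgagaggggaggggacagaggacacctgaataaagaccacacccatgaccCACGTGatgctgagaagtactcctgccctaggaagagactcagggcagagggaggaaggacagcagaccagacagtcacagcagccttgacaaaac
CEACAM6, chr19:41755280-41755579, plus strand: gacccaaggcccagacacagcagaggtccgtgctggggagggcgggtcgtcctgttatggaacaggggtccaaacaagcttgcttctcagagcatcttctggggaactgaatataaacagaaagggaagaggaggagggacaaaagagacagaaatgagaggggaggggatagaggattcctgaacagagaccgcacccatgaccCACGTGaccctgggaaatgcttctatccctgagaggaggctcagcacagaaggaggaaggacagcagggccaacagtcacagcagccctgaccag
CEACAM1, chr19:42528432-42528731, minus strand: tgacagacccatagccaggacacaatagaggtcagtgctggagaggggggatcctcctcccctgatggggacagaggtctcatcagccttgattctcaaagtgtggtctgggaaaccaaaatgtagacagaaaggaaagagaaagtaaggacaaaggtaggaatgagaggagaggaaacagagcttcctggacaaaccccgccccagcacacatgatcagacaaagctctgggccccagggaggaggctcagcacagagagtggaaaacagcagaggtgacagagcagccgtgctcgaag
PVR, chr19:44643660-44643959, plus strand: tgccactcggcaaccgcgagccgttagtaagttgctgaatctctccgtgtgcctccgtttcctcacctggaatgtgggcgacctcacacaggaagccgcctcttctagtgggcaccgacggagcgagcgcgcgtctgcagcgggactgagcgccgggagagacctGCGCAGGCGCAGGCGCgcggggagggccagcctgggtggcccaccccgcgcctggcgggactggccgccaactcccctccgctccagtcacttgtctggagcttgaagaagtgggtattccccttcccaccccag
The E-box began 46 bases before the start in CEACAM5 and 45 before in CEACAM6, and these letters were not in the CEACAM1 window. Of 35116 windows of this length, 7.26% held it. The PVR window held 2 overlapping NRF1 matches, 85 and 79 bases before the start, and 5.78% of all windows held any. The GC box GGGCGG, held by 45.0% of windows, was found in those of CEACAM6, CEACAM1, BCAM and NECTIN2, and the AP-1 motif TGACTCA, held by 4.95%, in none of the matched genes. The CEACAM5 and CEACAM6 windows were 75.9% identical, those of CEACAM5 and CEACAM1 67.1% and those of CEACAM6 and CEACAM1 68.7%. A match is a run of letters and not a measured binding site.

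Sequence shared with other gene models leaves some uncertainty in the counts. Of the 50-base words in the transcripts of CEACAM6, 7.22% also occur in another gene, and the share was 5.24% for CEACAM5, 3.28% for CEACAM1, 1.91% for CEACAM19, 2.13% for NECTIN2 and 1.62% for BCAM. The share for PVR was 19.1%, nearly all of it with a gene model inside its own last exon that has no row in the count table. The deposited values imply a length of 6099 bases for PVR, 0.585 of its exonic length in GENCODE v44, so its FPKM level rests on a shorter model.

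Within 500 kb of CEACAM19, 30 other genes were tested, of which 16 rose, 11 fell and 3 did not pass, or 53.3% higher and 36.7% lower beside 35.1% and 33.2% of all genes tested. Their median log2 fold change was 0.42, beside 0.03 for all genes tested. These comparisons were not matched for level, and the median change of tested genes differed between classes of level. Of the 16 that rose, 8 are zinc finger genes of a cluster before PVR, so the higher share is not a trait of the whole window. Farther out on that side, beyond 500 kb, zinc finger genes such as ZNF284 (1.98) and ZNF224 (1.86) also rose, while ZNF221 did not pass. At 2-fold or more, 9 of the 30 were higher and 3 lower, beside 11.7% and 4.85% of all genes. All 9 tested genes on the side before PVR rose, by 0.68 to 2.10 on the log2 scale, and 8 of these are zinc finger genes of a cluster, with mean levels from 0.0700 to 1.01 FPKM in NC. The last of the 9 is IGSF23, an immunoglobulin-superfamily gene, at 1.16 ± 0.35 (SE, adjusted p = 0.00722). Its level was low, with means of 0.207 FPKM in NC and 0.51 FPKM in siFSCN1. Of the 19 genes on the side after CEACAM19, 6 rose, 10 fell and 3 did not pass. Among these, BCL3, a nuclear regulator of NF-kappaB, rose by 0.66 (adjusted p = 8.6e-09), while RELB, an NF-kappaB subunit, fell by 0.57 on the log2 scale (adjusted p = 2.7e-06). The highest value on that side was 3.58 for NKPD1, whose mean was 0.0167 FPKM in NC and 0.227 FPKM in siFSCN1. The lowest was -1.10 for TOMM40, whose mean was 80.6 FPKM in NC and 42.1 FPKM in siFSCN1.

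**Figure D4:**
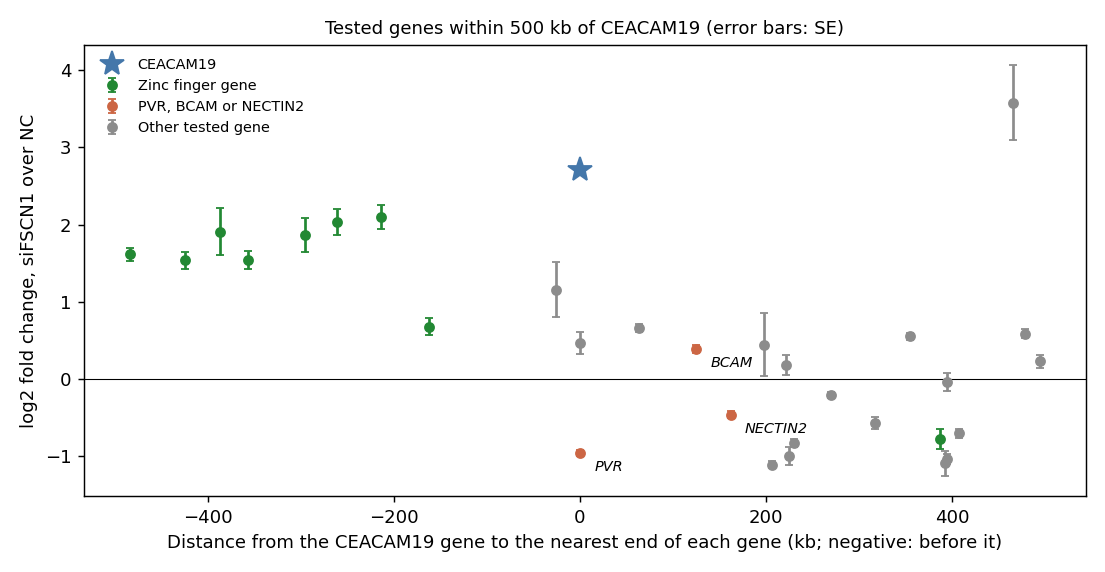
Log2 fold change of each tested gene within 500 kb by distance in kilobases from CEACAM19 (the star), with error bars of 1 SE for the other genes. Genes before PVR lie above 0, whereas those after CEACAM19 lie on either side.

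The genes of the pathways that these proteins belong to moved in mixed directions, and their counts stand beside 35.1% of all tested genes that passed as higher and 33.2% as lower. Of 12 CEACAM genes listed, 10 had a row and 4 passed the low-count filter, the members above, and the others stayed low, the highest mean being 0.0567 FPKM for CEACAM16 in siFSCN1. All 10 pregnancy-specific glycoprotein (PSG) genes, relatives of the CEACAMs, had a row, and the 1 tested, PSG4, did not pass (log2 fold change 0.43, adjusted p = 0.120). Among 10 nectins, nectin-like proteins and afadin, 9 were tested, of which 3 rose, 4 fell and 2 did not pass, counts near those shares. Their median was -0.24 beside 0.03 for all genes. PVR and NECTIN2, members described above, are among the 4 that fell. Only CADM2 reached 2-fold, at 1.86, with means of 0.0233 FPKM in NC and 0.0967 FPKM in siFSCN1. AFDN, the afadin that ties nectins to actin, rose by 0.99 (adjusted p = 1.9e-11) and CADM1, a nectin-like adhesion gene, by 0.84 (adjusted p = 3.4e-10), while NECTIN1 fell by 0.38 (adjusted p = 0.000195) on the log2 scale. The lymphocyte receptors that bind PVR and NECTIN2 were near 0, with summed levels of at most 0.07 FPKM in any library.

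BCAM and the 4 laminin chains listed beside it all rose, from 0.26 for LAMA5 to 0.83 for LAMB2 (adjusted p = 4.7e-06 and 2.2e-10), with a median of 0.30, where 35.1% of all genes tested passed as higher. BCAM is itself a member, and the list was chosen with results known, so the count is a description. Of 5 tested signalling partners of CEACAM1, 2 rose and 3 fell, including the phosphatase genes PTPN11 at 0.31 (adjusted p = 2.0e-05) and PTPN6 at -0.29 (adjusted p = 0.000107) on the log2 scale. The count that fell was 1 in place of 3 when library totals replaced the composition factors. Among 15 other immunoglobulin-superfamily adhesion genes tested, 4 rose, 6 fell and 5 did not pass, with a median of 0.05, and with library totals 7 rose. ALCAM, which joins cells by self-binding, rose from a mean of 12.7 to 23.6 FPKM (adjusted p = 1.5e-11), while F11R, a tight-junction protein, fell from 9.17 to 4.86 FPKM (adjusted p = 6.8e-12).

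**Figure D5:**
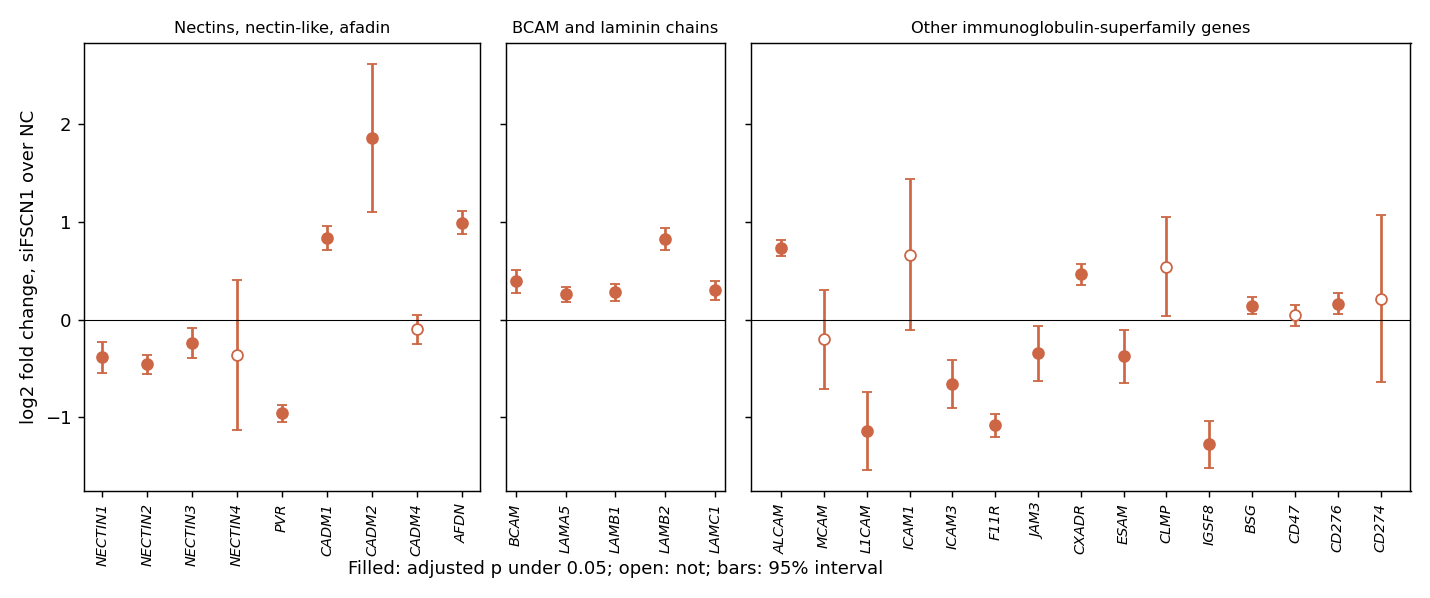
Log2 fold change of each tested gene of 3 of the lists, 1 point for each gene, with its 95% interval (filled points passed the test at an adjusted p under 0.05, open points did not). The BCAM and laminin list lies above 0 throughout, and the nectin and other adhesion lists spread over both directions.

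Likeness was measured by the root mean square difference of centred log2 CPM over the 6 libraries, among 11702 genes with a mean of at least 1 FPKM in either group. The genes most like CEACAM19 were PAQR6 (0.138), COLCA2 (0.138), MSH5-SAPCD1 (0.149), YJEFN3 (0.164) and RP11-334C17.5 (0.176). Their means ran from 0.26 to 0.43 FPKM in NC and from 1.83 to 3.74 FPKM in siFSCN1, below those of CEACAM19. The genes most like PVR were RBM12 (0.0178), CCND1 (0.0232), LRRC59 (0.0291), TUBB4B (0.0346) and CCNB1 (0.0356). The 6 libraries form 2 groups, so the measure is set mostly by the change between the groups.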

How the data were processed

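The authors deposited raw counts per gene for 6 libraries, 30230 genes, and FPKM values for 29899 of them. By the study's methods, the authors trimmed the reads with the FASTX toolkit, used HISAT2 to align them to GRCh38 and retained reads that mapped uniquely, whereas the submitters' processing notes name TopHat2 and bcl2fastq. How reads were counted, with which strand setting and which annotation, is not given in the sources used here. Groups came from the sample titles.

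Counts were filtered with filterByExpr, which left 17076 genes, scaled by TMM and tested in edgeR 4.0.16 under R 4.3.3 by quasi-likelihood, with Benjamini-Hochberg adjustment over all genes tested. A gene passed at an adjusted p under 0.05 and was called at 2-fold as well. The study used DESeq2 (here 1.42.0), an alternative here with limma 3.58.1 on log2 FPKM. FPKM values were used for levels and fold changes were fitted on counts, so ratios of FPKM differ from them by the scaling. The members, lists and named genes (the members, FSCN1, CEACAM16-AS1, neighbours and list members) were chosen with earlier results of these data known. Positions came from GENCODE release 44 and promoters from RefSeq. Total counts ran from 27967301 to 36560919, and standard errors rest on the spread among 3 libraries a group as well as on counting error. The quasi-likelihood fit also draws the spread of each gene towards a trend over all genes tested. Its standard errors and intervals therefore rest in part on other genes.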

Additional observations from a re-analysis of the deposited data

How the results depend on the processing

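Under the 17 alternatives, of which removing the trend with abundance was chosen after seeing the data, PVR, NECTIN2, CEACAM6, BCAM and CEACAM1 kept their direction and passed in each. The log2 fold change of PVR ran from -0.99 to -0.72, and those of NECTIN2 from -0.51 to -0.27, of CEACAM6 from -0.55 to -0.28, of BCAM from 0.33 to 0.58 and of CEACAM1 from 0.34 to 0.62. CEACAM19 was at 2.89 with library totals and 2.16 with limma on log2(FPKM + 1). CEACAM5 was at 0.35 with library totals (adjusted p = 0.0254), where it passed, and at -0.013 with the trend removed, where its direction turned (adjusted p = 0.939). The median of all genes lay 0.12 above that of the reported fit with upper quartiles, 0.19 above it with library totals and 0.14 above it with limma on log2(FPKM + 0.1). Genes called higher numbered 1991, and 285 with limma on log2(FPKM + 1) and 838 with limma at a mean FPKM of at least 1. Genes called lower numbered 829, and 510 with library totals, 395 with limma on log2(FPKM + 0.1), 186 on log2(FPKM + 1) and 328 at a mean FPKM of at least 1. The cause of these differences was not tested. Of the other immunoglobulin-superfamily genes, 7 rose with library totals and 2 of the limma fits, and 3 fell with limma at a mean FPKM of at least 1. Only 1 partner of CEACAM1 fell with library totals, the 3 limma fits and the trend removed. A PSG gene passed with library totals and without siFSCN1 replicate 1. A lymphocyte receptor passed without siFSCN1 replicate 2.

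Deviations of libraries with the same replicate number correlated at -0.03, 0.04 and -0.08, so expression gave no sign that the numbers pair the samples. The labels do not say whether equal numbers mark a shared batch. A fit with a block for the replicate number called 1992 genes higher and 835 lower, gave PVR a log2 fold change of -0.96 and changed the call of no member. With 3 libraries a group, an exact permutation test could not go below 0.1. CEACAM5, the gene of lowest level, had the widest standard error of the 7 members, 0.14.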
